A study of Ovis aries with 40 samples.

Results

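The genes described here are the interleukins and interleukin receptors expressed in developing sheep lung. They were picked by name from a table of 24478 genes: 80 symbols consisted of IL followed by digits, with or without a suffix, and 62 of them had a raw count of at least 10 in at least 4 of the 40 libraries. The 62 comprised 21 ligands, 2 antagonists (*IL1RN* and *IL18BP*), 33 receptor subunits, 3 decoy receptors and 3 receptor-like genes. Of the 18 left out, *IL5* and *IL19* reached the minimum in 2 libraries, *IL22RA1* reached it in 1, and the other 15 in none. The least covered genes that stayed in were *IL17C*, with 4 libraries, and *IL23R*, with 5.

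Interleukins are secreted or released proteins through which leukocytes, epithelium, endothelium and stroma signal to each other, and they act through receptors built from a ligand-binding chain and a shared signalling chain. *IL6ST* (gp130) is shared by the IL-6 group, *IL2RG* (the common gamma chain) by the receptors for IL-2, IL-4, IL-7, IL-15 and IL-21, *IL10RB* by several IL-10 family receptors, and *IL1RAP* by the IL-1 and IL-33 receptors. Signals are limited by decoy receptors such as *IL1R2*, by the receptor antagonist *IL1RN* and by the binding protein *IL18BP*, which captures IL-18. In lung, IL-33 is held in the nuclei of structural cells and released as an alarm signal, while IL-1, IL-6 and IL-17 signals recruit and activate phagocytes.

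Bulk RNA-seq was performed on American Romney sheep lung, split into a proximal and a distal region. Fetuses were taken on days 65, 80, 100 and 120 of gestation, further animals at term, and each genotype, region and day had 2 libraries. WT animals were conventionally bred, and those at term had been born naturally. CF animals were *CFTR*-/- and came from nuclear transfer of 1 male fetal fibroblast line with *CFTR* targeted in exon 2, so that the CF genotype, cloning and a single donor line cannot be told apart. Both regions of an animal carried the same replicate number, and the 40 libraries carried 19 animal labels within a genotype and day, because both WT replicates of day 100 shared 1 label. The label of the second day 65 WT replicate was also given to the second day 100 CF replicate. The question was how lung gene expression develops through gestation and whether it differs when *CFTR* is lost.

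Depth followed genotype before term, at 24670355 to 43700012 counted reads in the 16 WT libraries and 85773994 to 103139483 in the 16 CF libraries, and lay between 115937437 and 126749480 in the 8 term libraries. Before term depth and genotype were therefore confounded. Between day 120 and term in WT, age was confounded with depth and with birth. *CFTR* itself, the targeted gene, had 9.58 to 14.8 CPM (reads scaled to library size) in the 4 WT term libraries. The 4 CF term libraries had 3.65 to 5.14 CPM, without overlap. Pooled over the prenatal days the ranges overlapped (11.02 to 43.8 CPM in WT and 4.99 to 34.9 CPM in CF). Within each prenatal day and region, however, both CF libraries lay below both WT libraries. Epithelial and endothelial markers were detected in every group, and no marker of any list was at 0 in every library of a genotype over both regions, before term or at term. One library stood apart. CF proximal replicate 2 at 120 days held the highest or lowest value of its 8 prenatal CF proximal libraries for 33 of the 62 genes, against 6 to 25 genes for each of the others. Its *IL17RA* level was 1.67 CPM where replicate 1 had 24.0 CPM. Counts behind each comparison are given below without it where it moved them, and animals rather than regions are the independent units.

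Levels between genes were compared per kilobase of exon, as the mean CPM per kb over the 40 libraries. Of the 10 genes with a mean of 10 CPM per kb or more, 8 were receptors, 1 was the ligand *IL33* and 1 the antagonist *IL18BP*. Over all libraries *IL33* led with 43.8 CPM per kb, followed by *IL27RA* (the IL-27 receptor) with 41.5, *IL13RA1* (a chain of the IL-4 and IL-13 receptors) with 41.2, and then by *IL6ST*. *IL10RB* had 26.5, *IL11RA* 23.5, *IL18BP* 18.96 and *IL1R1* (the signalling IL-1 receptor) 13.4 CPM per kb. The leading gene differed between groups, being *IL33* in WT before term (55.7 CPM per kb), *IL27RA* in CF before term (47.7), *IL6ST* in WT at term (63.9) and *IL13RA1* in CF at term (102, with 1 animal at 562 and 610 CPM).

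**Figure D1:**
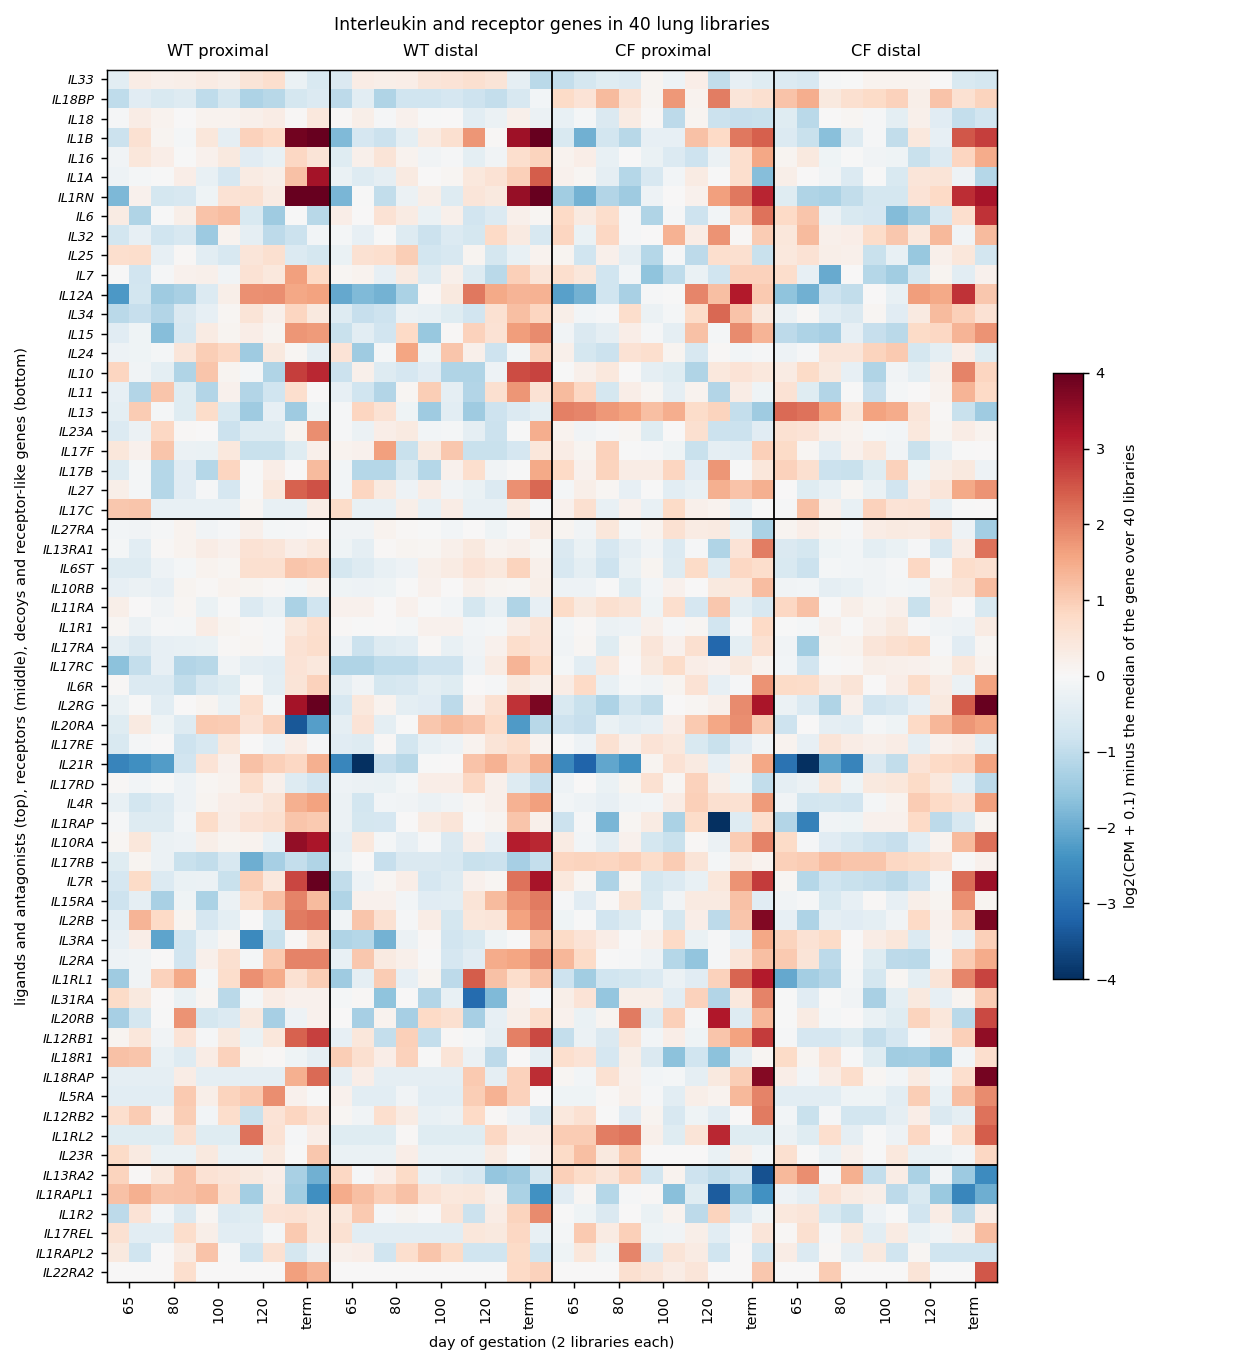
Each row is 1 of the 62 genes and each column 1 of the 40 libraries, grouped by genotype, region and day with 2 libraries per day, and the colour gives log2(CPM + 0.1) minus the median of the gene over all libraries (red higher, blue lower, limited to 4 either way). The term columns of WT are red for *IL1B*, *IL1RN*, *IL2RG*, *IL7R* and *IL10RA*, and the *IL18BP* and *IL17RB* rows are redder in CF than in WT at all time points.

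Most ligands were scarce. Besides *IL33*, 4 ligands had means between 1 and 10 CPM per kb, namely *IL18* (4.77), *IL1B* (1.62), *IL16* (1.37) and *IL1A* (1.22). The means of *IL1B* and *IL1A* were raised by the WT term libraries (9.87 and 4.49 CPM per kb) and were below 1 before term (0.535 and 0.902 in WT, 0.339 and 0.853 in CF). The remaining 16 of 21 were below 1 CPM per kb, as were 21 of the 39 receptor, decoy and receptor-like genes. Among them *IL6* had 0.947, *IL32* 0.520, *IL25* 0.415, *IL7* 0.376, *IL12A* 0.361, *IL34* 0.253, *IL15* 0.250, *IL24* 0.248 and *IL10* 0.218 CPM per kb. *IL11*, *IL13*, *IL23A*, *IL17F*, *IL17B*, *IL27* and *IL17C* ranged from 0.163 down to 0.0153 CPM per kb, and each of these 7 had at least 1 library at 0. In *IL23A*, 57.1% of exon bases also lie in exons of *STAT2* on the other strand, and since the strand setting of the counting is not given in the sources used here its reads are uncertain.

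Between days 65 and 120 *IL12A* and *IL21R* changed in all 4 time courses. *IL12A* encodes the p35 chain of IL-12 and IL-35, and *IL21R* the receptor for IL-21, a cytokine of T helper cells. In WT proximal lung *IL12A* was at 0.158 and 0.659 CPM on day 65 and at 4.41 and 4.503 CPM on day 120. In CF proximal lung it was at 0.184 and 0.240 CPM and then at 4.85 and 2.83 CPM. In both genotypes and regions the day 120 libraries lay above all day 65, 80 and 100 libraries of their course.

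*IL12A* rose by 3.43 ± 0.62 on the log2 scale (± SE) in WT proximal lung (edgeR adjusted p = 0.00492), by 4.18 ± 0.49 in WT distal lung (adjusted p = 0.000943), by 4.21 ± 0.80 in CF proximal lung (adjusted p = 0.0463) and by 3.80 ± 0.62 in CF distal lung (adjusted p = 0.00595). *IL21R* had 0.710 and 0.824 CPM on day 65 and 11.2 and 9.59 CPM on day 120 in WT proximal lung, with no overlap. Its rise was 3.75 ± 0.50 in WT proximal (adjusted p = 0.00101), 4.66 ± 0.51 in WT distal (adjusted p = 0.000700), 3.18 ± 0.60 in CF proximal (adjusted p = 0.0463) and 4.49 ± 0.57 in CF distal lung (adjusted p = 0.00241). These 2 genes alone passed in all 4 time courses. The CF proximal calls were lost without either CF proximal replicate of day 65 and at equal depth (adjusted p = 0.062 and 0.097). They were also lost with a replicate block (0.081 and 0.096), although replicate numbers pair samples of different conditions in name only. The *IL12A* call in CF distal lung was lost without CF distal day 65 replicate 2 (adjusted p = 0.060).

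**Figure D2:**
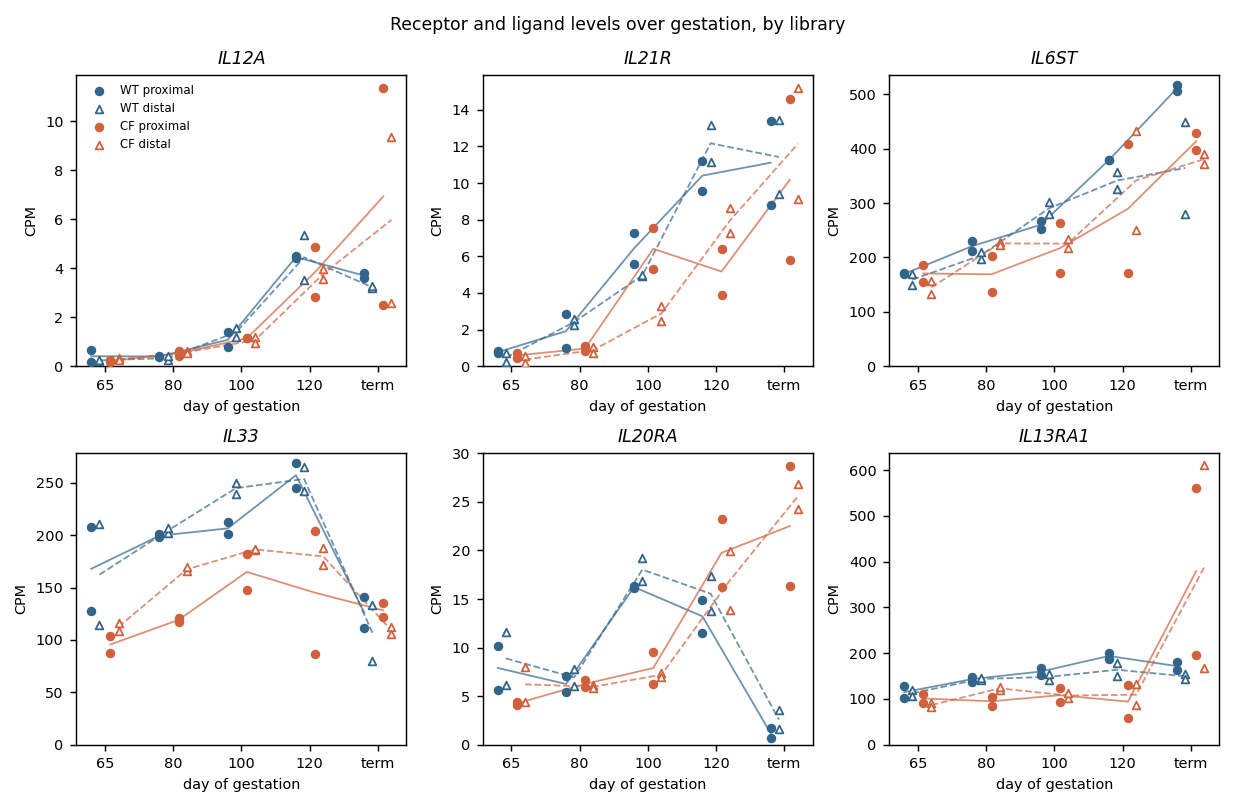
CPM (y axes, from 0) by day of gestation (x axes) for 6 genes, with 1 point per library, lines through the means of 2 libraries, circles for proximal and triangles for distal lung, blue for WT and orange for CF. *IL12A*, *IL21R* and *IL6ST* are higher on day 120 than on day 65 in most libraries, *IL33* falls at term in WT, *IL20RA* is low in the 4 WT and high in the 4 CF term libraries, and *IL13RA1* is high in both term libraries of 1 CF animal.

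The shared receptor chain *IL6ST* went from 169 and 171 CPM on day 65 to 379 and 380 CPM on day 120 in WT proximal lung. It rose by 1.15 ± 0.10 there (adjusted p = 0.000130), by 1.09 ± 0.20 in WT distal (adjusted p = 0.00685) and by 1.28 ± 0.27 in CF distal lung (adjusted p = 0.0160). None of these calls held under every alternative. In CF proximal lung the day 120 replicates had 409 and 171 CPM, the second being the library that stood apart, and *IL6ST* did not pass. *IL13RA1* rose in both WT regions (0.75 ± 0.13 and 0.53 ± 0.13), as did *IL1RL1*, the receptor for IL-33 (2.85 ± 0.80 and 3.40 ± 1.01). *IL4R* rose in WT proximal (0.90 ± 0.21) and CF distal lung (1.37 ± 0.36).

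Counted over the genes that passed the filter on low counts, 9 of 50 changed in WT proximal lung (8 higher, 1 lower), beside 20.1% of all genes tested. In WT distal lung 7 of 52 changed, all higher, beside 18.2%. In CF proximal lung 3 of 61 changed, all higher, beside 1.66%, and in CF distal lung 9 of 61 changed (8 higher, 1 lower), beside 12.1%. Apart from the CF proximal course, where few genes passed at all, these shares were near or below the background. The other calls were *IL34* and *IL1RAP* higher and *IL17RB* lower in WT proximal lung, *IL17RC* and *IL17RD* higher in WT distal lung, *IL20RA* higher in both CF regions, and *IL33*, *IL1RN* and *IL15* higher and *IL18R1* lower in CF distal lung.

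The counts moved with single libraries. Here and below, leaving out CF proximal day 120 replicate 1 keeps only the library that stood apart for that day. Higher counts in such refits are therefore not read as further changes. The share of all genes called in each refit was not counted. In WT proximal lung the 9 became 4 and 5 without day 120 replicates 1 and 2, and in WT distal lung the 7 became 3 without day 120 replicate 1. In CF proximal lung the 3 became 0 without either day 65 replicate and 10 without day 120 replicate 1. In CF distal lung the 9 became 4 and 2 without day 65 replicates 1 and 2, and 4 without day 120 replicate 1. Cell type markers moved over the same interval. Alveolar genes rose for 5 of 6 in WT proximal, WT distal and CF distal lung and 4 of 6 in CF proximal lung, endothelial genes for 5, 6, 6 and 1 of 7, and cartilage genes fell for 3 in each of these regions but CF proximal lung, where 1 fell. Their part in the interleukin changes was not tested.

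Between day 120 and term 13 genes passed in both WT regions (share of all genes not counted), 10 higher and 3 lower. Those that rose included the receptor chains *IL10RA*, *IL2RG* and *IL7R* and the IL-1 family genes *IL1B* and *IL1RN*. *IL10RA*, the IL-10 receptor chain of leukocytes, was at 2.23 and 1.63 CPM on day 120 in WT proximal lung and at 24.4 and 20.3 CPM at term. *IL2RG* went from 3.88 and 2.27 CPM to 24.5 and 49.6 CPM. In distal lung the 2 WT term libraries had 18.8 and 17.3 CPM of *IL10RA* and 18.1 and 33.7 CPM of *IL2RG*. Every one of these term libraries lay above all prenatal libraries of its region.

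The rise was 3.53 ± 0.30 for *IL10RA* in proximal (adjusted p = 0.000172) and 3.14 ± 0.40 in distal lung (adjusted p = 0.00155), and 3.59 ± 0.42 and 3.002 ± 0.49 for *IL2RG* (adjusted p = 0.000713 and 0.00399). *IL7R*, the IL-7 receptor of lymphocytes, rose by 2.80 ± 0.60 and 2.80 ± 0.47. Among IL-1 family genes, the antagonist *IL1RN* went from 1.82 and 1.49 CPM to 20.3 and 30.2 CPM in proximal lung, and the ligand *IL1B* from 0.881 and 0.801 to 7.31 and 13.1 CPM. *IL1RN* rose by 3.93 ± 0.62 in proximal (adjusted p = 0.00261) and 3.82 ± 0.69 in distal lung (adjusted p = 0.00588). *IL1B* rose by 3.60 ± 0.61 (adjusted p = 0.00352) and 3.15 ± 0.77 (adjusted p = 0.0183).

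**Figure D3:**
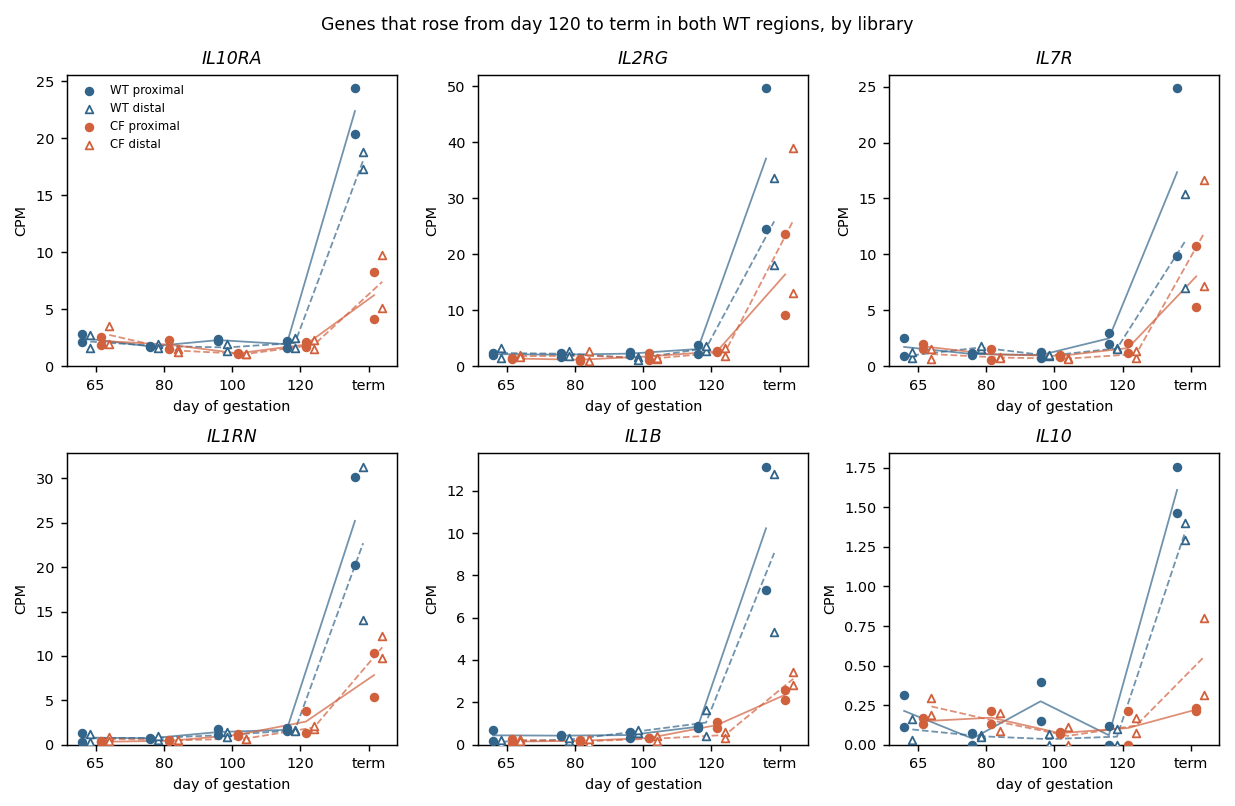
CPM (y axes, from 0) by day of gestation (x axes) for 6 genes that rose to term in both WT regions, with 1 point per library, lines through the means of 2 libraries, circles for proximal and triangles for distal lung, blue for WT and orange for CF. All 4 WT term points lie above the WT prenatal points in each panel, and the CF term points of *IL10RA*, *IL1RN*, *IL1B* and *IL10* lie below the WT ones.

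The anti-inflammatory ligand *IL10* was nearly absent before term. It had 4 and 0 reads in the WT proximal day 120 libraries and 168 and 210 reads at term (1.46 and 1.76 CPM), and 0 and 4 reads against 143 and 160 reads in distal lung. *IL27*, a ligand of myeloid cells, had 4 and 7 reads on day 120 and 118 and 143 at term in proximal lung (means of 0.155 and 1.11 CPM). Both passed in both WT regions. Before term they reached at most 0.397 CPM (*IL10*) and 0.302 CPM (*IL27*) in WT, near the count minimum of the filter. Their calls thus rest largely on the term libraries, through which they also entered the test. *IL4R*, *IL16* and *IL1R1* passed in both WT regions too, at rises of 0.49 to 1.39. Proximal lung added *IL12RB1*, *IL2RB*, *IL1A*, *IL6R*, *IL17RA* and *IL6ST*, and distal lung added *IL17RC*.

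The 3 genes that fell in both WT regions were *IL20RA*, *IL33* and *IL17RD*. *IL20RA*, a receptor chain for IL-19, IL-20 and IL-24, went from 11.5 and 14.9 CPM on day 120 to 0.662 and 1.66 CPM at term in proximal lung, and fell by 3.50 ± 0.47 on the log2 scale (adjusted p = 0.00123), and in distal lung it fell by 2.599 ± 0.45 (adjusted p = 0.00473). *IL33* went from 245 and 269 CPM to 141 and 112 CPM in proximal lung and from 265 and 242 CPM to 134 and 80.0 CPM in distal lung, without overlap in either. It fell by 1.03 ± 0.21 (adjusted p = 0.00739) and 1.27 ± 0.29 (adjusted p = 0.0145), and neither call held under every alternative. *IL17RD*, a receptor-like regulator of FGF and IL-17 signals, fell by 1.12 ± 0.19 and 1.28 ± 0.22. The IL-13 decoy *IL13RA2* and the receptor *IL11RA* fell in proximal lung, and the synaptic receptor-like gene *IL1RAPL1* in distal lung.

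In all, 21 of 50 genes changed in WT proximal lung (16 higher, 5 lower), a share of 42.0% beside 24.6% of all genes tested. Their median change was 0.54, beside 0.06 over all genes. In WT distal lung 15 of 52 changed (11 higher, 4 lower), a share of 28.8% beside 25.8%, with a median of 0.91 beside 0.04. The proximal count was 13 and 9 without day 120 replicates 1 and 2, and 9 without term replicate 2. It was 6 when both genotypes of the region were fitted together, beside 6.4% of all genes in that fit. The distal count was 7 and 9 without day 120 replicates 1 and 2. *IL10RA*, *IL2RG* and *IL20RA* passed in both regions under every alternative other than the stricter limits of the study.

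Markers of leukocytes and of epithelium rose with them. The summed level of 6 pan-leukocyte genes (*PTPRC*, *CD53* and others) was 73.5 to 252 CPM in the 16 WT prenatal libraries and 662 to 1380 CPM in the 4 WT term libraries, and that of 9 macrophage genes 99.4 to 211 CPM against 999 to 2082 CPM. All 6 leukocyte and all 9 macrophage genes passed upward in both regions. B cell genes summed to 1.48 to 4.43 CPM before term and 49.6 to 77.3 CPM at term, neutrophil genes to 0.649 to 18.5 and 45.4 to 209 CPM, and T cell genes to 23.4 to 33.4 and 40.8 to 57.1 CPM. Of these, 3 of 7 B cell genes passed upward in each region, 4 and 3 of 5 neutrophil genes, and 1 and 2 of 9 T cell genes (proximal and distal). Epithelial genes rose for 7 of 7 in proximal and 5 of 7 in distal lung and alveolar genes for 6 of 6 in both, while 4 of 6 and 3 of 6 mesenchymal genes fell. Mast cell genes went from 45.7 to 83.8 CPM before term to 14.2 to 17.7 CPM (2 of 5 and 1 of 4 called lower), and all 4 erythroid genes fell in both regions, from a sum of 12.6 to 118 CPM to one of 1.21 to 3.45 CPM. In bulk tissue, more cells of a type and more RNA per cell cannot be told apart, and the part of these markers in the interleukin results was not tested.

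CF distal lung shared 8 of its 15 term changes with both WT regions (share over all genes not counted). Of these *IL10RA*, *IL16*, *IL1B*, *IL1RN*, *IL2RG* and *IL7R* were higher and *IL17RD* and *IL33* lower. *IL1RN* rose from 1.77 and 2.09 CPM to 9.70 and 12.2 CPM (2.50 ± 0.39, adjusted p = 0.00561). *IL16*, a chemoattractant for CD4+ cells, rose from 3.50 and 4.43 CPM to 12.03 and 18.7 CPM (1.95 ± 0.31, adjusted p = 0.00623). *IL6*, the acute-phase cytokine, went from 0.231 and 0.459 CPM to 1.29 and 6.34 CPM (3.46 ± 0.83, adjusted p = 0.0210). The other calls were *IL13RA1*, *IL18R1*, *IL18RAP* and *IL2RB* higher and *IL13* and *IL27RA* lower. For the IL-18 receptor chains the day 120 counts were 2 and 0 reads (*IL18R1*) and 6 and 2 reads (*IL18RAP*), so no fold is given.

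The CF distal count of 15 of 61 (11 higher, 4 lower) lay beside 23% of all genes. It was 2 without CF distal day 120 replicate 1 and 4 without term replicate 2. Markers called higher in this course included 6 of 6 leukocyte, 8 of 9 macrophage, 6 of 9 T cell, 4 of 5 neutrophil and 4 of 8 B cell genes. Also higher were 2 of 2 NK and cytotoxic, 6 of 7 epithelial, 1 of 5 mast cell and 1 of 5 dendritic genes. Not all lists are given, and the part of these cell types was not tested. In CF proximal lung 0 of 61 genes passed by edgeR, beside 0.356% of all genes, although 15 had an unadjusted p below 0.05 and DESeq2 called 11, beside 7.23% of all genes by that tool. Fitting both genotypes of the region together gave 6, beside 5.95%, and leaving out CF proximal day 120 replicate 1 or term replicate 1 gave 4 or 2. In this region *IL2RG* went from 2.52 and 2.74 CPM on day 120 to 9.12 and 23.6 CPM at term, and *IL10RA* from 2.11 and 1.70 CPM to 4.18 and 8.27 CPM, without overlap. The median change of the 61 genes was 0.59, beside -0.12 over all genes. Leukocyte genes summed to 527 to 950 CPM and macrophage genes to 300 to 489 CPM in the 4 CF term libraries, against 62.6 to 285 CPM and 79.0 to 192 CPM in the 16 CF prenatal libraries.

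The 2 CF term animals differed from each other. Over all genes the chi-square per degree of freedom between term replicates was 629 in CF proximal and 693 in CF distal lung, against 202 and 452 in WT. *IL13RA1* had 196 and 562 CPM in CF proximal and 167 and 610 CPM in CF distal lung, and *IL2RB* (shared by the IL-2 and IL-15 receptors) 2.00 and 12.5 CPM and 1.89 and 13.3 CPM. The summed T cell genes ranged from 35.3 to 100 CPM in the CF proximal and from 50.02 to 145 CPM in the CF distal term libraries. Other lists also spread widely between the CF distal term libraries, from 1.18 to 28.6 CPM for NK and cytotoxic genes, 12.8 to 133 CPM for neutrophil genes and 7228 to 32575 CPM for alveolar genes, and the part of these cell types was not tested. Without CF distal term replicate 2 the rises of *IL13RA1*, *IL6* and *IL2RB* were 0.61 (adjusted p = 0.17), 1.90 (adjusted p = 0.12) and 0.55 (adjusted p = 0.54).

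Before term the binding protein *IL18BP* and the receptor chains *IL17RB* and *IL17RC* were higher in CF than in WT lung in both regions. *IL18BP* had 5.79, 7.76 and 10.2 CPM as lowest, median and highest of the 16 WT libraries and 14.7, 23.2 and 57.1 CPM in the 16 CF libraries. All CF libraries lay above all WT ones before term for this 1 gene of the 62, beside 2.13% of all genes, and it did not overlap at term either. *IL18BP* (chromosome 15, 49747376 to 49749923 in Oar_v4.0) was 1.87 ± 0.28 higher in CF proximal (adjusted p = 0.000588) and 1.69 ± 0.16 higher in CF distal lung (adjusted p = 3.57e-06). Its ligand *IL18* did not pass in either region before term (-0.38 ± 0.20 in proximal lung). Of the exon bases of *IL18BP*, 9.58% also lie in *RNF121* on the same strand. *RNF121* differed between genotypes by 0.08 ± 0.10 in proximal and 0.16 ± 0.08 in distal lung and did not pass.

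*IL17RB* encodes a receptor chain for IL-25 and IL-17B. It lies on chromosome 19 at 47048717 to 47064032. It had 0.676, 1.84 and 3.16 CPM in WT and 2.79, 5.44 and 7.002 CPM in CF as lowest, median and highest, and overlapped only through the CF proximal day 120 library that stood apart and the highest WT libraries. The difference was 1.56 ± 0.20 in proximal (adjusted p = 0.000254) and 1.58 ± 0.15 in distal lung (adjusted p = 3.68e-06). Of its exon bases, 9.78% lie in *ACTR8* on the other strand, and *ACTR8* differed by 0.26 ± 0.12 in proximal lung, where it did not pass, and was 0.28 ± 0.10 higher in CF distal lung (adjusted p = 0.0352). *IL17RC*, the partner chain of *IL17RA*, had 7.71 to 30.7 CPM in WT and 14.3 to 40.2 CPM in CF, and was 0.92 ± 0.18 (adjusted p = 0.00276) and 0.74 ± 0.12 (adjusted p = 0.000247) higher in CF.

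**Figure D4:**
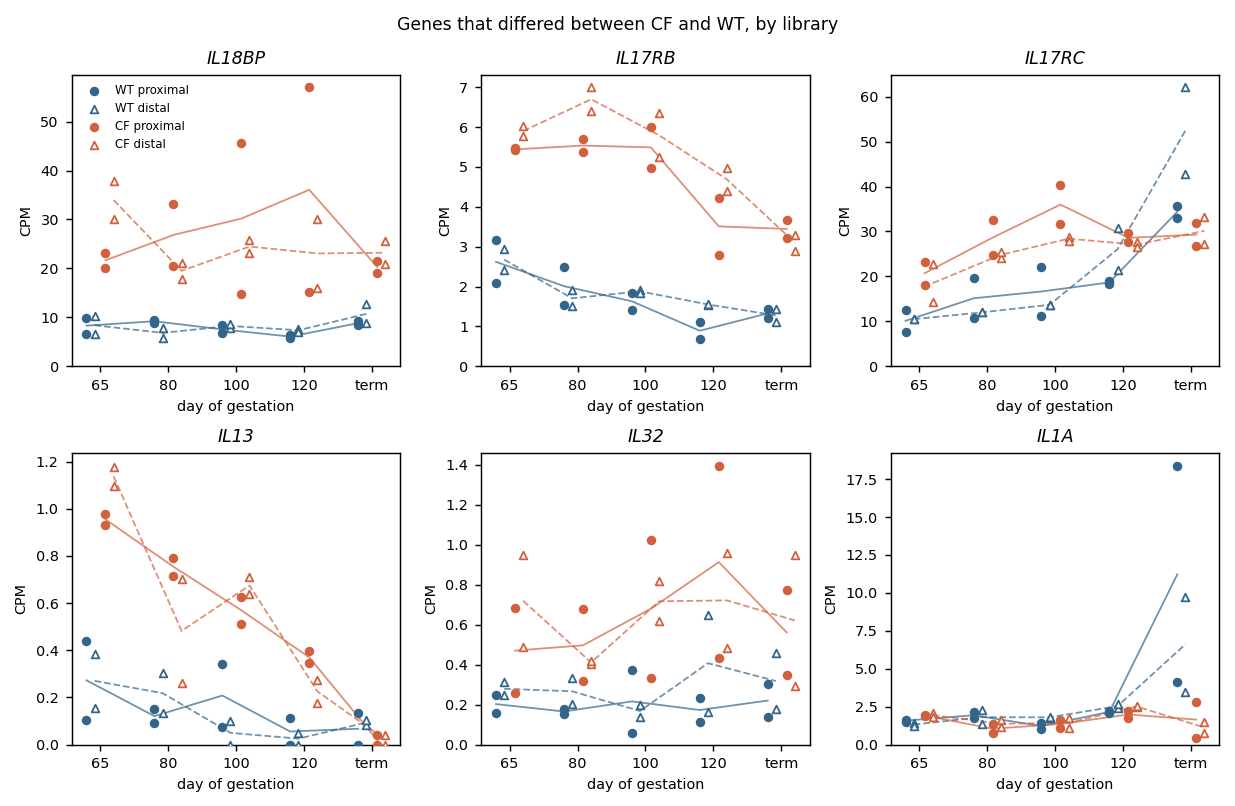
CPM (y axes, from 0) by day of gestation (x axes) for 6 genes, with 1 point per library, lines through the means of 2 libraries, circles for proximal and triangles for distal lung, blue for WT and orange for CF. *IL18BP* is at 14.7 CPM or more in every CF and at 12.6 CPM or less in every WT library, *IL13* is higher in CF early in gestation and near 0 in all libraries at term, and *IL1A* is higher in WT at term.

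*IL13*, the type 2 cytokine, was present at low counts, with 0 to 16 reads in the WT and 17 to 125 reads in the CF prenatal libraries. In CPM these were 0 to 0.439 and 0.177 to 1.18. It was 2.14 ± 0.70 (adjusted p = 0.0441) and 2.42 ± 0.56 (adjusted p = 0.00460) higher in CF, and the proximal call was lost at equal depth (adjusted p = 0.059), with a replicate block (0.055) and without most single libraries (0.050 to 0.10). *IL32*, a ligand of lymphoid cells, was 1.71 ± 0.50 and 1.21 ± 0.39 higher in CF, also at low counts. It had 2 to 26 reads (0.0567 to 0.650 CPM) in WT and 28 to 120 reads (0.258 to 1.39 CPM) in CF, so that its CPM ranges overlapped. Its calls were lost without any 1 of several libraries (proximal adjusted p = 0.058 to 0.075, distal adjusted p = 0.052 to 0.070). *IL33* was lower in CF, with a median of 157 CPM against 209 CPM in WT, and overlapping ranges. The difference was -0.68 ± 0.16 in proximal (adjusted p = 0.00936) and -0.43 ± 0.13 in distal lung (adjusted p = 0.0171).

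In all, 8 of 62 genes differed in proximal lung (6 higher in CF, 2 lower) and 11 of 61 in distal lung (7 higher, 4 lower). Both shares lay below the background of 20.6% and 32.3% of all genes tested. Besides the 6 genes shared by both regions, *IL34* was higher and *IL1RL1* lower in CF proximal lung. In CF distal lung *IL6R* (0.80 ± 0.19) and *IL3RA* were higher, and *IL1RAPL1*, *IL21R* and *IL18R1* were lower. The proximal count was 5 without WT replicate 1 of day 65, 80 or 100, 18 without CF day 120 replicate 1, and 14 by DESeq2 (beside 28.4% of all genes by that tool). The distal count was 7 without CF day 100 replicate 2. Among marker lists in distal lung, 4 of 9 macrophage genes and 2 of 9 T cell genes were lower and 1 macrophage gene, 3 of 6 alveolar and 3 of 7 endothelial genes higher in CF. In proximal lung 2 of 6 leukocyte genes were lower and 2 of 6 alveolar, 2 of 7 endothelial and 2 of 5 cartilage genes higher, and the part of these cell types was not tested. *IL17RB*, *IL17RC*, *IL18BP* and *IL33* passed in both regions under every alternative other than the stricter limits.

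At day 120 taken alone, only *IL18BP* and *IL17RB* passed, in both regions, beside 1.35% of all genes in proximal and 4.38% in distal lung. *IL18BP* had 5.79 and 6.33 CPM in WT proximal and 15.1 and 57.1 CPM in CF proximal lung, and 7.68 and 7.02 against 16.1 and 30.03 CPM in distal lung. The differences were 2.57 ± 0.57 (adjusted p = 0.0445) and 1.66 ± 0.31 (adjusted p = 0.00918). *IL17RB* differed by 1.98 ± 0.41 (adjusted p = 0.0388) and 1.61 ± 0.30 (adjusted p = 0.00815). With a replicate block the proximal calls were lost (adjusted p = 0.053 and 0.054), and at equal depth that of *IL17RB* was lost (0.054). Without CF proximal replicate 2 the *IL18BP* difference was 1.31 (adjusted p = 0.17), and the counts were 0 without either WT replicate of the region. In proximal lung they were 12 without CF replicate 1 and 1 without CF replicate 2.

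**Figure D5:**
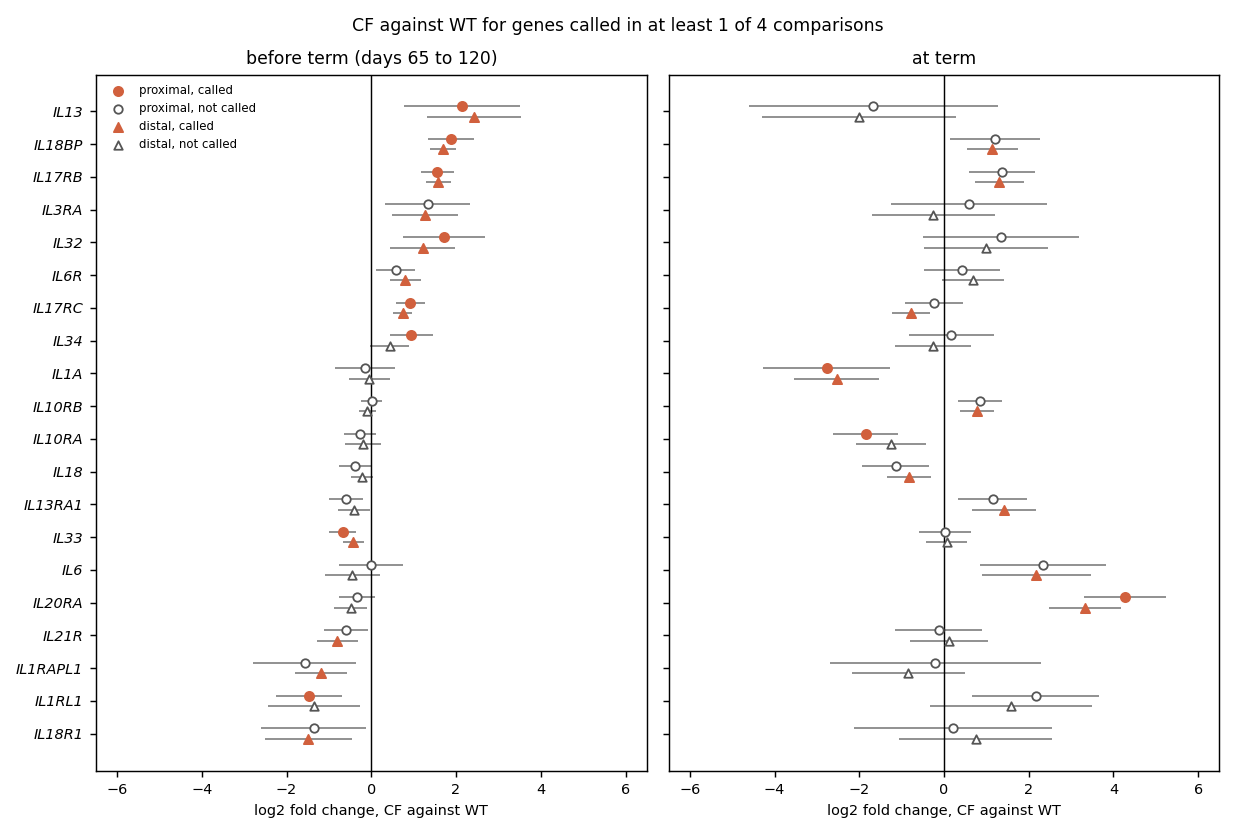
Log2 fold change of CF against WT (x axes) with bars over its confidence interval, before term (left) and at term (right), for the 20 genes called in at least 1 of the 4 comparisons (circles proximal, triangles distal, orange where called). *IL18BP* and *IL17RB* lie to the right of 0 in both panels, and *IL20RA* and *IL1A* stand out at term only.

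At term *IL20RA* had the largest difference among the genes that passed. It had 0.662 and 1.66 CPM in WT proximal and 1.56 and 3.60 CPM in WT distal lung, against 28.7 and 16.4 CPM in CF proximal and 26.9 and 24.3 CPM in CF distal lung. The 4 CF libraries lay above the 4 WT libraries by a wide margin. *IL20RA* (chromosome 8, 61938486 to 61973181) was 4.28 ± 0.49 higher in CF proximal (adjusted p = 0.000348) and 3.33 ± 0.43 higher in CF distal lung (adjusted p = 0.000316), and passed under every alternative in both regions. Before term it had not passed (-0.34 and -0.49 in proximal and distal lung). Its change from day 120 to term differed between genotypes by 3.70 ± 0.63 in proximal (adjusted p = 0.0107) and 3.20 ± 0.58 in distal lung (adjusted p = 0.00490). Leaving out the second WT proximal replicate of day 120 raised the proximal adjusted p to 0.065.

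*IL1A*, an alarm ligand of epithelium and phagocytes, differed the other way. It had 4.10 and 18.3 CPM in WT proximal and 3.48 and 9.75 CPM in WT distal lung at term, against 2.82 and 0.463 CPM and 1.51 and 0.736 CPM in CF. CF differed from WT by -2.77 ± 0.76 in proximal (adjusted p = 0.0476) and -2.54 ± 0.51 in distal lung (adjusted p = 0.00503). The adjusted p was 0.53 and 0.053 without WT replicate 2, and 0.23 and 0.054 without CF replicate 2. *IL10RA* was at 24.4 and 20.3 CPM in WT and 4.18 and 8.27 CPM in CF proximal lung, and differed by -1.85 ± 0.39 (adjusted p = 0.0145), a call lost without WT replicate 1, WT replicate 2 or CF replicate 1 (0.061 to 0.094).

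In distal lung at term *IL17RB* (1.31 ± 0.29), *IL18BP* (1.14 ± 0.31), *IL10RB* (0.79 ± 0.20), *IL13RA1* (1.41 ± 0.38) and *IL6* (2.18 ± 0.66) were also higher in CF, and *IL18* (-0.83 ± 0.27) and *IL17RC* (-0.77 ± 0.23) were lower. *IL17RC* thus passed in opposite directions before term and at term, with 62.2 and 42.7 CPM in WT and 33.1 and 27.1 CPM in CF distal term libraries. The genotype difference in its change from day 120 to term did not pass (-0.84 ± 0.32, adjusted p = 0.115). On day 120 its distal means were already close, at 26.03 CPM in WT and 27.06 CPM in CF. On days 65, 80 and 100 they were 10.48, 11.98 and 13.67 CPM in WT. In CF they were 18.50, 24.79 and 28.39 CPM on these days. The test from day 120 thus does not compare the difference before term with that at term, and the reversal was not tested. Without CF distal replicate 2 *IL13RA1* differed by 0.16 (adjusted p = 0.70), *IL6* by 0.59 (0.62), *IL10RB* by 0.35 (0.28) and *IL18BP* by 0.95 (0.14). Without WT distal replicate 1 *IL18BP* differed by 0.87 (0.17), *IL17RB* by 1.09 (0.080) and *IL17RC* by -0.51 (0.27). *IL18* was at 16.1 and 12.03 CPM in WT and 7.23 and 8.28 CPM in CF distal lung, and its call was lost without WT replicate 1 (-0.64, adjusted p = 0.24), CF replicate 1 (-0.78, 0.12) or CF replicate 2 (-0.96, 0.11).

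At term 3 of 62 genes passed in proximal lung (1 higher in CF, 2 lower), beside 6.09% of all genes, and 9 of 61 in distal lung (6 higher, 3 lower), beside 15.2%. The proximal count was 1 without WT replicate 2 and 6 without CF replicate 1, and DESeq2 gave 8 (beside 13.6% of all genes by that tool). The distal count was 2 and 5 without WT replicates 1 and 2, and 5 without CF replicate 2. Over both regions the 4 CF libraries lay above the 4 WT libraries for *IL10RB*, *IL18BP*, *IL5RA*, *IL17RB*, *IL1RL1*, *IL6* and *IL20RA*, beside 13.7% of all genes. They lay below for *IL10*, *IL2RA*, *IL18*, *IL10RA*, *IL27*, *IL1RN*, *IL1B*, *IL1A*, *IL1R2* and *IL27RA*, beside 16.1%.

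Marker lists moved beside these genes. Pan-leukocyte genes overlapped (662 to 1380 CPM in WT, 527 to 950 CPM in CF), and 2 of 6 passed as lower in CF in proximal and 1 of 6 in distal lung. Macrophage genes summed to 999 to 2082 CPM in WT and 300 to 489 CPM in CF term libraries, without overlap, and 7 of 9 passed as lower in CF in proximal and 6 of 9 in distal lung. The sum of mast cell genes, 73.7 to 116 CPM in CF against 14.2 to 17.7 CPM in WT, rested on *KIT* and *TPSB2*, and 2 of 6 genes passed as higher in CF in proximal and 2 of 5 in distal lung. The sum of B cell genes, 49.6 to 77.3 CPM in WT against 8.57 to 27.2 CPM in CF, was dominated by *CR2*, which reached 68.6 CPM where no other B cell gene exceeded 8.37 CPM. Of the 8 B cell genes 0 passed by edgeR in proximal lung (1 with an unadjusted p below 0.05) and 1 was lower in CF in distal lung, where their median difference was 0.96. T cell genes (40.8 to 57.1 and 35.3 to 145 CPM) and neutrophil genes (45.4 to 209 and 11.1 to 133 CPM) overlapped. The 7 epithelial genes summed to 1603.2 to 1870 CPM in WT and 774 to 1435 CPM in CF, without overlap, although 1 of 7 passed as lower in CF in distal lung and 0 in proximal lung (1 with an unadjusted p below 0.05). The part of these cell types in the interleukin differences was not tested.

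The change from day 120 to term differed between genotypes for 1 of 62 genes in proximal lung, *IL20RA*, beside 1.78% of all genes, and for 4 of 61 in distal lung, beside 9.31%. The other 3 in distal lung were *IL13RA1* (1.98 ± 0.54), *IL1A* (-2.54 ± 0.70) and *IL27RA* (-1.32 ± 0.37). The smaller rises of *IL10RA* and *IL1RN* in CF did not pass as a difference in change (-1.82 ± 0.55, adjusted p = 0.115, and -2.33 ± 0.90, adjusted p = 0.225, in proximal lung). The proximal count was 0 without WT day 120 replicate 2, 8 and 2 without CF day 120 replicates 1 and 2, and 4 without CF term replicate 1. The distal count was 1 without WT day 120 replicate 1 or 2 or WT term replicate 2, 2 without CF day 120 replicate 1 and 8 without CF term replicate 1.

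Of 44 genes that carry or limit interleukin signals (JAK and STAT proteins, SOCS inhibitors, IRAK and TRAF adaptors, NF-kB subunits and partner cytokines and receptors), 41 had a row. From day 65 to 120, 13 of 40 rose in each WT region and none fell, beside the 20.1% (proximal) and 18.2% (distal) of all genes that changed. They included *CSF2RB*, the beta chain shared with the IL-3 and IL-5 receptors (2.88 ± 0.19 in proximal and 2.90 ± 0.30 in distal lung), and the NF-kB inhibitor *NFKBIA* (1.47 ± 0.23 and 1.41 ± 0.16). In CF proximal lung 0 of 40 passed by edgeR and 8 had an unadjusted p below 0.05 (beside 1.66% of all genes), and in CF distal lung 6 rose and 2 fell (beside 12.1%).

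From day 120 to term 9 of 40 rose and 4 fell in WT proximal lung (beside 24.6% of all genes), and 11 rose and 5 fell in WT distal lung (beside 25.8%). In distal lung *IRAK1*, a kinase of IL-1 receptor signalling, rose by 1.12 ± 0.14 and *CSF2RB* fell by 1.35 ± 0.28. Before term 9 of 40 were higher and 2 lower in CF proximal lung, and 10 of 41 higher and 2 lower in CF distal lung, near the 20.6% and 32.3% of all genes that differed. *CLCF1*, a ligand that signals through *IL6ST*, was at 11.9 to 22.1 CPM in WT and 36.6 to 46.6 CPM in CF proximal lung before term, and was 1.30 ± 0.12 and 1.34 ± 0.11 higher in CF (adjusted p = 2.59e-05 and 1.64e-06). At term it was 1.49 ± 0.24 and 1.33 ± 0.23 higher, in comparisons where 2 of 40 signalling genes were higher and 2 lower in proximal lung (beside 6.09% of all genes) and 2 of 41 higher and 3 lower in distal lung (beside 15.2%). *STAT2*, a signal transducer of interferon receptors, was lower in CF at term in both regions (-1.25 ± 0.30 and -0.99 ± 0.25). The change from day 120 to term differed for 1 of 40 (beside 1.78%) and 3 of 41 (beside 9.31%). That of *IRAK1* differed in both regions (-1.55 ± 0.31, adjusted p = 0.0248, and -1.68 ± 0.28, adjusted p = 0.00346).

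No interleukin or receptor gene passed between regions. Before term 0 of 62 passed by edgeR, beside 0.0193% of all genes, and 0 by DESeq2, beside 0.101%, and 1 gene, the IL-31 receptor *IL31RA*, had an unadjusted p below 0.05. At term 0 of 62 passed by edgeR, beside 0% of all genes, and 0 by DESeq2, beside 0.0193%, and *IL1RL2* and *IL20RA* had an unadjusted p below 0.05. With a block for the animal the counts were 0 as well. Under the stricter limits of the study, an adjusted p of at most 0.001 with a log2 fold change of at least 0.58, few genes passed. From day 65 to 120 these were *IL6ST* in WT proximal lung (beside 3.17% of all genes) and *IL12A* and *IL21R* in WT distal lung (beside 1.56%), with none in CF proximal (0%) or CF distal lung (0.338%). From day 120 to term they were *IL10RA* and *IL2RG* in WT proximal lung (2.14%), with none in WT distal (1.15%), CF proximal (0%) or CF distal lung (0.338%). Between genotypes before term they were *IL17RB* and *IL18BP* in proximal lung (2.5%) and these with *IL17RC* in distal lung (6.86%). At term *IL20RA* passed in proximal (0.339%) and in distal lung (1.25%). None passed at day 120 (0% and 0.0896%), for the difference in change (0.0442% and 0.189%) or between regions (0.00481% before term and 0% at term).

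A total of 21 of the 62 genes passed in none of the 18 comparisons, among them *IL7*, *IL11*, *IL24*, *IL25*, *IL17B*, *IL17C*, *IL17F*, *IL23A*, *IL15RA* and *IL2RA*. The share of all genes that passed in none was not counted, so this number is not read as particular to these genes.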

How the data were processed

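RNA was sequenced from 40 libraries of proximal and distal lung, 2 per condition. The authors used STAR for alignment to Oar_v4.0 and featureCounts 1.6.3 for gene-level counting. The deposited counts are raw, per gene and library, with gene coordinates and a gene length in bases, which the deposited tables give as the summed exon length. Neither the strand setting nor the treatment of mates is given in the sources used here. In each library 69.2% to 85.8% of the small counts were even numbers, which fits each fragment adding both of its mates, so counting error is larger than the counts alone imply.

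Genes were kept by filterByExpr (count minimum 10, total minimum 15), scaled by TMM and tested in R 4.3.3 with edgeR 4.0.16 (glmQLFit and glmQLFTest) on all genes. Each time course used its 10 libraries, each genotype comparison the 20 libraries of a region, and the region comparison all 40, with 1 mean per condition. P-values were adjusted by Benjamini-Hochberg over all genes tested, and a gene was called at 0.05 or less. The stricter limits of the study (0.001 for the adjusted p, 0.58 for the size of the log2 fold change) were an alternative, beside RLE size factors, DESeq2 1.42.0, no filter, thinning to equal depth, a replicate block, a fit of both genotypes, summed WT day 100 libraries and leaving out libraries. Subtraction of a lowess curve of fold change on gene length (span 0.3) and the bias-adjusted quasi-likelihood were added after the data were seen. CPM were TMM-scaled over all 40 libraries. An SE is the log2 fold change divided by the square root of F. The code was tested on simulated data.

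The genes, marker lists and the list of signalling genes were chosen with earlier results of these data known. Named genes are those called in a comparison, every ligand by its level, the 8 highest genes per kilobase, and signalling genes past the test, at most 6 per comparison, by smallest p. Genes given with values but not called were chosen after their values were seen. Both regions of an animal share a replicate number in the labels. Their deviations correlated between -0.094 and 0.626 (median 0.229, 10 conditions), and a block by animal left the region counts at 0. Replicates of a condition differed beyond sampling noise (chi-square per degree of freedom 7.30 to 1989). The spread behind each p-value was estimated over all conditions of its fit, with 2 libraries per condition, and drew on other genes. Every fit with WT libraries includes the day 100 pair, which shares 1 animal label. That pair was summed only for the comparisons before term. Where a library was left out, its condition kept 1 library, and the spread came from the other conditions. Sequences were not analysed here. The result for 1 signalling gene is not reported here.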

Additional observations from a re-analysis of the deposited data

Results flagged for a closer look

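The change from day 120 to term differed between genotypes for *IL20RA* in both regions, by 3.70 ± 0.63 on the log2 scale in proximal (edgeR adjusted p = 0.0107) and 3.20 ± 0.58 in distal lung (adjusted p = 0.00490). In WT all 4 term libraries were below all WT prenatal ones, and in CF 3 of the 4 were above all CF prenatal ones.

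In distal lung the change differed for *IL13RA1* (1.98 ± 0.54, adjusted p = 0.0348), *IL1A* (-2.54 ± 0.70, adjusted p = 0.0363) and *IL27RA* (-1.32 ± 0.37, adjusted p = 0.0399). Without CF distal term replicate 2 these were 0.74 (adjusted p = 0.14), -2.13 (0.12) and -0.87 (0.051). Without WT distal term replicate 2 they were 1.91 (0.080), -1.61 (0.15) and -1.15 (0.097). All 3 calls were also lost without WT distal day 120 replicate 1 or 2. So were those of *IL13RA1* without WT term replicate 1 or CF day 120 replicate 2, of *IL1A* without CF day 120 replicate 1, and of *IL27RA* without either CF day 120 replicate.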

How the results depend on the processing

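Of 119 calls, 33 held under every alternative other than the stricter limits, and no call changed direction under any of them. Calls kept were 118 of 119 with RLE, 119 with DESeq2, 117 without a filter, 103 of 116 at equal depth, 105 with the replicate block, 51 of 79 in the fit of both genotypes, 16 of 19 with WT day 100 summed, 115 with the length trend removed, 117 with the bias-adjusted test and 469 of 724 with a library left out. The causes were not tested. Counts follow as day 120 against day 65, then term against day 120.

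With the stricter limits, counts were 1 and 2 in WT proximal, 2 and 0 in WT distal and 0 and 0 in CF distal lung, 0 in CF proximal lung (day 120 against day 65), 2 proximal and 3 distal for CF against WT before term, 0 and 0 at day 120, 1 and 1 at term, and 0 and 0 for the difference in change. Shares of all genes called under the same setting stand in brackets. DESeq2 gave 11 (23.8%) in WT distal, 5 (9.22%) in CF proximal and 17 (22%) in CF distal lung for day 120 against day 65, 11 (7.23%) for CF proximal term, 14 (28.4%) for CF against WT before term and 8 (13.6%) at term in proximal lung, and 4 (7.64%) and 8 (19.1%) for the difference in change. The fit of both genotypes gave 3 (6.07%) and 6 (6.4%) in WT proximal, 5 (7.22%) and 6 (5.95%) in CF proximal and 15 (19.3%) in CF distal lung (day 120 against day 65). Equal depth gave 1 (1.59%) for CF proximal (day 120 against day 65) and 1 (1.42%) for proximal day 120. The replicate block gave 0 (0.493% and 0.777%) for both of these, and changed no other count by over 1.5 times. The numbers pair samples of different conditions in name only (correlations from -0.415 to 0.616). The length trend gave 5 (8.2%) and the bias-adjusted test 11 (9.15%) for CF against WT at term in proximal lung, 2 (3.32%) and 3 (2.22%) for its difference in change, and the latter 16 (20.2%) at term in distal lung.

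Leaving out 1 library gave 4 to 7 and 9 to 15 in WT proximal, 3 to 7 and 7 to 18 in WT distal, 0 to 10 and 0 to 4 in CF proximal, and 2 to 12 and 2 to 20 in CF distal lung. CF against WT gave 5 to 18 (proximal) and 7 to 13 (distal) before term, 0 to 12 and 0 to 3 at day 120, 1 to 6 and 2 to 13 at term, and 0 to 8 and 1 to 8 for the difference in change. Region counts were 0 to 0 before term and 0 to 0 at term. For the region comparison before term, 8 of 32 libraries were left out in turn (proximal replicate 1), and the others were not run. Shares of all genes called were not counted in any refit with a library left out. A general gain or loss of calls can thus not be told from a change in these genes.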
